A study of Rattus norvegicus with 6 samples.

Results

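The genes described are 34 members of the endoplasmic reticulum (ER) stress and integrated stress response, taken as a fixed list: sensors, transcription factors, targets of the transcription factor ATF4, ER chaperones with folding enzymes, and genes of ER-associated degradation. A probe belonged to a member if its transcript accession names that gene in the RefSeq gene table. Of the 34 members 32 had a probe, and all 32 were measured among 31637 genes tested. These 31637 include sequences without a matched RefSeq symbol, each counted as a gene under its array name. Manf, a secreted ER stress protein, and Edem1, a lectin that routes misfolded glycoproteins to degradation, had no probe matched in this way. The 32 members were covered by 49 of 61537 probes, of which 48 passed the filter on dim probes, and 14 members had several of these.

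The samples were renal cortex from 6 male Sprague-Dawley (Crl:CD(SD)) rats, bought at 5 weeks of age, with 1 single-colour Agilent array per animal. Tricresyl phosphate, an organophosphate found in plastics, lubricants and hydraulic fluids, was given to 3 animals at 200 mg/kg/day for 4 weeks. The other 3 animals received corn oil, also for 4 weeks. The study compared these groups to find transcripts of the renal cortex that differ after tricresyl phosphate, and the tissue is a mixture of all cortical cell types.

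Secretory and membrane proteins fold in the ER with the help of chaperones such as BiP, and unfolded proteins there release BiP from the sensors IRE1 (Ern1), PERK (Eif2ak3) and ATF6. IRE1 splices the mRNA of XBP1, ATF6 is cut to a transcription factor, and both factors raise chaperone and degradation genes. PERK phosphorylates the initiation factor eIF2, as do sister kinases that answer amino acid shortage, haem shortage and viral RNA, and this favours translation of ATF4, which raises genes of amino acid supply. In the kidney the proximal tubule takes up filtered protein and makes serine, so several ATF4 targets are also everyday enzymes of this tissue.

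Promoter sequences were searched for motifs of the pathway, and the members that share one are shown first. RefSeq promoters on assembly GRCr8, from 250 bases before to 50 bases after the annotated start, were found for 29 of the 34 members and for 27457 genes in all. The ER stress element ERSE (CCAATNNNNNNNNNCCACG), read by ATF6 and XBP1 with the factor NF-Y, was searched on both strands. It stood in 7 of the 29 member promoters, or 24.1%, against 21 of all 27457, or 0.0765%. By class it stood in 6 of 10 chaperone promoters, in 1 of 4 transcription factor promoters (Xbp1) and in 0 of 11 promoters of ATF4 targets. The motifs here and below were picked as known elements of this pathway, so their shares describe the members and test nothing. A match is a run of letters and not a measured binding site. Of these matches 7, in 6 promoters, are given with 10 flanking bases on each side, turned so that the motif reads as spelled, with the motif in capitals and the strand shown.
Hspa5, chr3:38452963-38453001, plus strand: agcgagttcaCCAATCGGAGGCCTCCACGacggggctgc
Hsp90b1, upstream match, chr7:23012441-23012479, minus strand: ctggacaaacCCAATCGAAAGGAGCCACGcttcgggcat
Hsp90b1, downstream match, chr7:23012337-23012375, plus strand: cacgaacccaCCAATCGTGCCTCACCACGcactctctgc
Dnajc3, chr15:102432524-102432562, plus strand: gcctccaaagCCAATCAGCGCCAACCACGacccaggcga
Creld2, chr7:121789229-121789267, minus strand: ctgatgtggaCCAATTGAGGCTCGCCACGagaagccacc
Calr, chr19:40213125-40213163, minus strand: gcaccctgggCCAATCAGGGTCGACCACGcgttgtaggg
Xbp1, chr14:84604548-84604586, plus strand: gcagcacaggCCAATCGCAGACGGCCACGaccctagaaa

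The shorter ERSE-II (ATTGG, any base, CCACG) stood in 2 member promoters, those of Hyou1 and Herpud1, or 6.9%, against 0.0546% of all promoters. The composite site CARE (TGATGNAA), bound by ATF4 with a C/EBP partner, stood in 3 member promoters, or 10.3%, against 3.82% of all. The XBP1 element UPRE (TGACGTG) stood in 2, those of Hspa5 and Hyou1, or 6.9%, against 1.88%, and the UPRE of Hyou1 overlaps its upstream ERSE-II. These sites are given in the same form, since Herpud1 holds an ERSE-II and a CARE and Trib3 holds a CARE close to its start.
Hyou1, upstream ERSE-II, chr8:53602684-53602714, minus strand: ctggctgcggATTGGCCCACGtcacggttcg
Hyou1, downstream ERSE-II, chr8:53602784-53602814, minus strand: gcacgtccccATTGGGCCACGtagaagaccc
Herpud1, ERSE-II, chr19:10614811-10614841, minus strand: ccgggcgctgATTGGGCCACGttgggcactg
Herpud1, CARE, chr19:10614874-10614901, plus strand: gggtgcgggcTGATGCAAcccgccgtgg
Trib3, CARE, chr3:161275537-161275564, plus strand: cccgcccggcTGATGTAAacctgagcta
Chac1, CARE, chr3:126795954-126795981, minus strand: ctagcaggagTGATGCAAcggcggagaa

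The promoter of Hspa5 is given for the 160 bases before its start, because it holds an ERSE and a UPRE in 1 short stretch. Capitals mark the UPRE and then the ERSE.
Hspa5, GRCr8 chr3:38452856-38453015, plus strand: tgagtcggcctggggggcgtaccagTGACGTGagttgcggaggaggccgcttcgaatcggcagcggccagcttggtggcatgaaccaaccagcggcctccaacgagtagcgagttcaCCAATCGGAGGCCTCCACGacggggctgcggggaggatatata

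**Figure D1:**
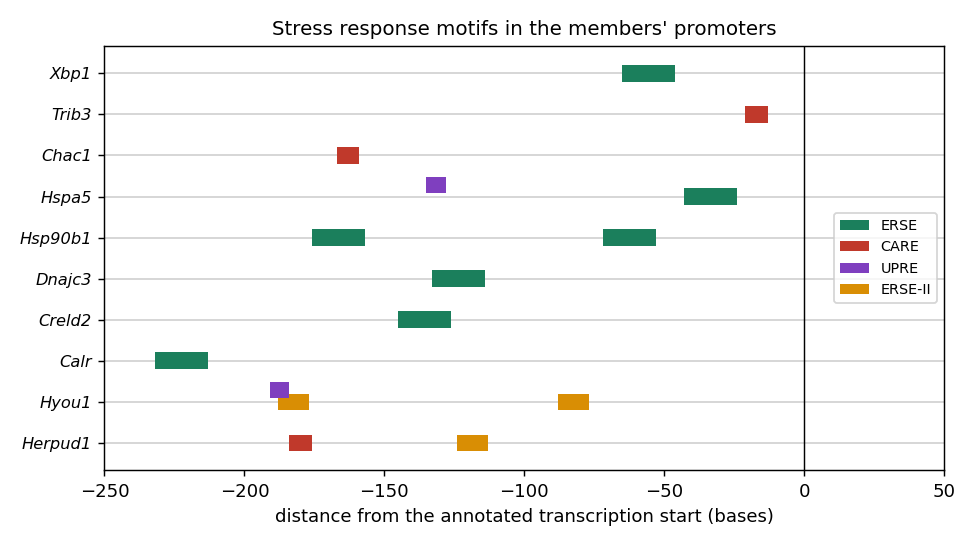
Positions of the 4 motifs in 10 member promoters that hold any of them, as distance in bases from the annotated start (0), over 250 bases before to 50 bases after it. Coloured bars are the matches, green for ERSE, orange for ERSE-II, violet for UPRE (drawn slightly raised) and red for CARE, and all of them lie upstream of the start.

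Levels are processed signals on a log2 scale from which each array's own 75th percentile was taken, so 0 means as bright as that percentile, and levels of different probes are not compared. Differences are tricresyl phosphate minus corn oil on the same log2 scale, tested with limma over all 31637 genes. None of the 32 members passed an adjusted limma p under 0.05, and the smallest adjusted limma p among them was 0.811. Over all genes 0 passed either, a percent called of 0.0. At an unadjusted limma p under 0.05, on the brightest probe of each gene, stood 4 of 32 members, against 1737 genes, or 5.49%, of all genes tested. These were Sesn2 and Trib3, higher with tricresyl phosphate, against 1.63% of all genes called higher at this p, and Atf4 and Psat1, lower, against 3.86% called lower. The count was 0 to 2 in 12 of the 17 other settings tried, among them the 6 that each left out 1 animal (1 to 2). Groups did not overlap in 4 members, Sesn2 and Slc3a2 (higher, against 3.84% of all genes) and Atf4 and Psat1 (lower, against 7.94%), together 12.5% against 11.8% of all genes. The members' median difference was -0.02, beside -0.04 over all genes. There were 14 members above and 18 below 0, or 56.2% below, beside 59.2% of all genes. Counts above and below 0 given further on are to be read beside that 59.2%. For a single gene an exact two-sided permutation test of 3 against 3 animals cannot go below 0.1. A bulk measurement cannot tell fewer cells of a type from less RNA per cell.

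**Figure D2:**
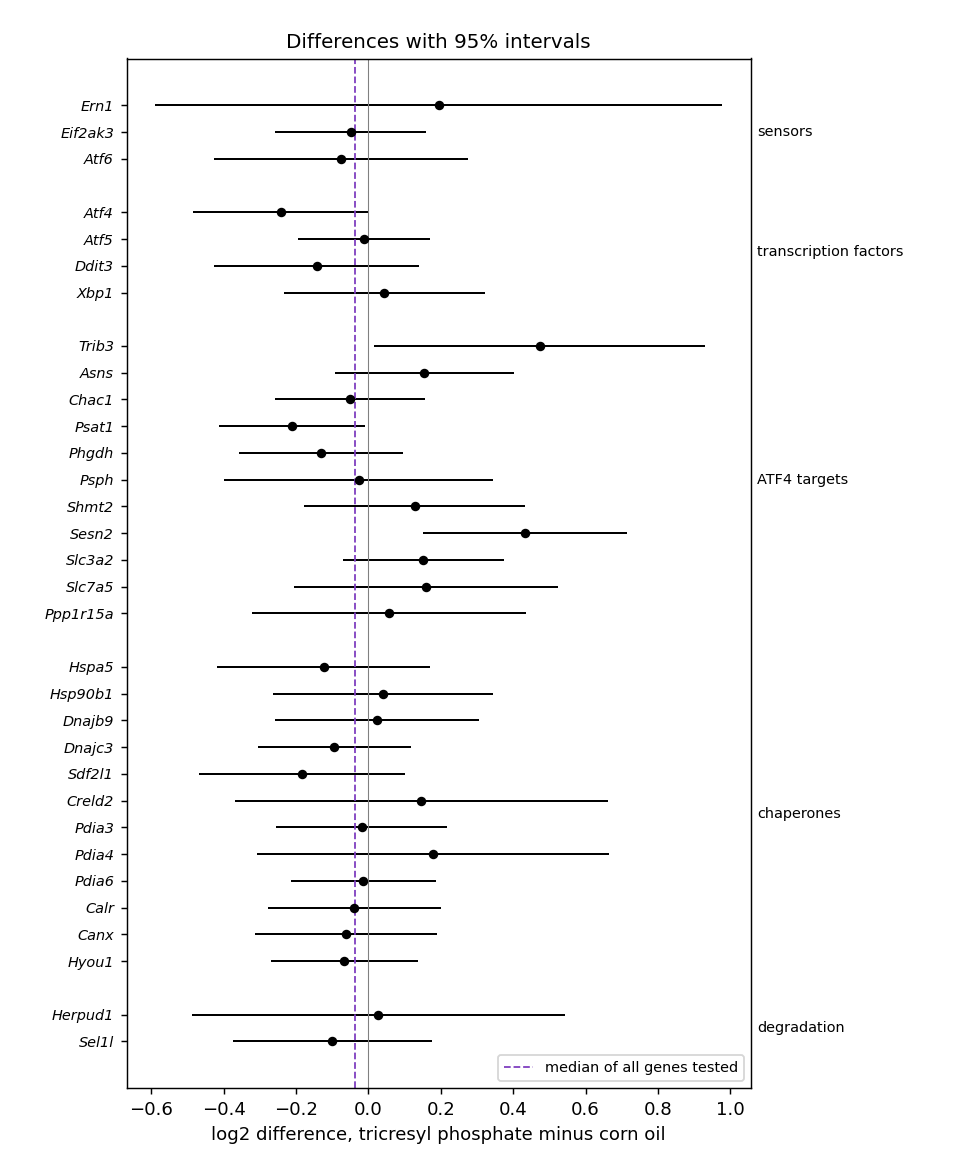
Differences of the 32 measured members (log2, tricresyl phosphate minus corn oil) with 95% limma intervals, grouped by role. The dashed line is the median of all genes tested, -0.04. Intervals of Sesn2 and Trib3 lie above 0, those of Psat1 and Atf4 below 0, and all others include 0.

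The arrays and the tissue set the limits of these values. Median processed signals ranged from 102.6 to 133.2 over median local backgrounds of 33.0 to 41.0, with 41503 to 43823 probes per array well above background. Corn oil replicate 1 lay alone on its slide and scan, and the other 5 arrays shared a slide. Of 39 cell type markers 38 had a probe and 36 were detected, including 6 of 6 for the proximal tubule. Summed marker signals, in units of the 75th percentile, were 963 to 1110 with tricresyl phosphate and 1070 to 1130 with corn oil for the proximal tubule. Red blood cell markers summed to 135 to 171 with tricresyl phosphate and 178 to 199 with corn oil, and macrophage markers (4 of 4 detected) to 6.79 to 7.42 with tricresyl phosphate and 7.89 to 8.34 with corn oil, so the groups did not overlap for either sum. The macrophage markers were not uniform: C1qa differed by -0.28 and Cd68 by -0.16, against 0.12 for Csf1r and 0.03 for Adgre1. Plasma cells, which carry a large ER, had 1 of 4 markers detected, Derl3, with sums of 0.346 to 0.552 with tricresyl phosphate and 0.539 to 0.628 with corn oil. Of their other markers Tnfrsf17 was well above background on 0 of 6 arrays, Mzb1 on 2, and Jchain had no probe. Hepatocyte markers summed to 10.2 to 15.6 with tricresyl phosphate and 9.15 to 18.5 with corn oil, highest in tricresyl phosphate replicate 3 and corn oil replicate 2. These markers were not uniform either. Apoc3, the largest part of each sum, was lowest in those animals, at 2.74 and 2.78. Alb, Ttr, Apoa1 and Serpina1 were highest in them, and varied far more than the sum. Over all 6 animals Alb ranged from -2.47 to 2.62 and Ttr from -3.53 to 1.88. The part of these cell types in the members' differences was not tested.

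ATF4 targets held the largest differences among the members, and their directions were mixed. Of 11 measured, 7 were above 0 and 4 below, with a median of 0.13 beside -0.04 over all genes, and none passed the adjusted threshold. The median was 0.069 without tricresyl phosphate replicate 1 and 0.072 without corn oil replicate 1. Sesn2, a stress-induced inhibitor of the growth kinase complex mTORC1 and a leucine sensor, was at 0.69, 1.00 and 1.02 in tricresyl phosphate replicates 1 to 3, against 0.47, 0.52 and 0.43 in corn oil replicates 1 to 3. Every tricresyl phosphate animal lay above every corn oil animal, replicates 2 and 3 by the widest margin, and the corn oil animals lay close together. The difference was 0.43 ± 0.12 (SE), or 1.35-fold, with a 95% interval of 0.15 to 0.71, an unadjusted limma p of 0.00926 and an adjusted limma p of 0.811. It ranged from 0.37 to 0.54 over 17 other settings, with an unadjusted limma p under 0.05 in 16 of them, and 1 probe was matched to this gene. Some of these settings repeat another fit, so they are not separate checks. The authors' value table again gave 0.433. The slide as a block and leaving out corn oil replicate 1 both gave 0.430.

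Trib3, a pseudokinase that binds AKT and dampens ATF4 in a feedback loop, was at -4.15, -3.63 and -3.66 in tricresyl phosphate replicates 1 to 3, against -4.17, -4.54 and -4.13 in corn oil replicates 1 to 3. Replicates 2 and 3 of tricresyl phosphate were high, while replicate 1 lay among the corn oil animals, so the groups overlapped. The Trib3 probe was dim, with means of -3.81 with tricresyl phosphate and -4.28 with corn oil. It was well above background on all 3 arrays of each group. The difference was 0.47 ± 0.19 (SE), or 1.39-fold, with an unadjusted limma p of 0.0449 and an adjusted limma p of 0.811. Leaving out the animal with the most hepatocyte marker signal in each group (tricresyl phosphate replicate 3, corn oil replicate 2) gave 0.265, and quantile normalization after a normexp background step gave 0.269, neither at an unadjusted limma p under 0.05.

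Asns, the asparagine synthetase, was at -0.95, -0.80 and -0.73 with tricresyl phosphate, against -0.95, -1.09 and -0.90 with corn oil. Replicates 2 and 3 were again the higher tricresyl phosphate animals, and replicate 1 stood at the level of corn oil replicate 1. The difference was 0.16 ± 0.10 (SE), with a 95% interval of -0.09 to 0.40. Slc3a2, the heavy chain that carries amino acid exchangers to the membrane, was at 4.66, 4.65 and 4.84 with tricresyl phosphate, against 4.58, 4.54 and 4.58 with corn oil. The groups did not overlap, with tricresyl phosphate replicate 3 the highest, and the difference was 0.15 ± 0.09 (SE). It was 0.089 without that animal and 0.244 under quantile normalization. Its light chain partner Slc7a5, the large neutral amino acid transporter LAT1, was well above background on 2 of 3 arrays in each group and differed by 0.16 ± 0.15 (SE), close to background.

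Among genes of serine synthesis Psat1 and Phgdh lay below 0, and Psph lay near the median of all genes. Shmt2, the mitochondrial step that uses serine, lay above 0 with overlapping groups. Psat1, the phosphoserine aminotransferase, was at 5.43, 5.48 and 5.38 with tricresyl phosphate, against 5.63, 5.71 and 5.59 with corn oil. Every tricresyl phosphate animal lay below every corn oil animal. The difference was -0.21 ± 0.08 (SE), 0.864-fold, with an unadjusted limma p of 0.0432, while a second Psat1 probe differed by -0.02 ± 0.23 (SE) with overlapping groups. Quantile normalization gave -0.115, so this value moves with the scaling.

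Phgdh, the dehydrogenase that starts the serine pathway, was at 6.88, 6.67 and 6.80 with tricresyl phosphate, against 6.96, 6.93 and 6.85 with corn oil. Only tricresyl phosphate replicate 1 reached into the corn oil range. The difference was -0.13 ± 0.09 (SE), and -0.09 on the second probe, and it shrank to -0.007 under quantile normalization, and to -0.004 when normexp background correction preceded that step. Psph, the phosphatase of the last step, differed by -0.03 ± 0.15 (SE), with a sign that turned under quantile normalization, with or without normexp before it. Shmt2, which passes the serine carbon to folate in mitochondria, was at 3.93, 3.59 and 3.88 with tricresyl phosphate, against 3.53, 3.73 and 3.75 with corn oil, a difference of 0.13 ± 0.13 (SE) with overlapping groups.

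Chac1, which breaks down glutathione and is a late ATF4 and CHOP target, differed by -0.05 ± 0.09 (SE), with all 6 animals between -0.95 and -0.80. A dimmer Chac1 probe, well above background on 3 tricresyl phosphate arrays and 2 of 3 corn oil arrays, was at -2.25, -5.15 and -4.93 with tricresyl phosphate, against -5.06, -5.93 and -5.48 with corn oil. Tricresyl phosphate replicate 1 alone stood far above the rest on that probe, so the mean of both probes differed by 0.667. Ppp1r15a, the GADD34 subunit that returns eIF2 to its unphosphorylated form, differed by 0.06 ± 0.16 (SE), with a second probe at 0.20 ± 0.14 (SE) and overlapping groups on both.

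**Figure D3:**
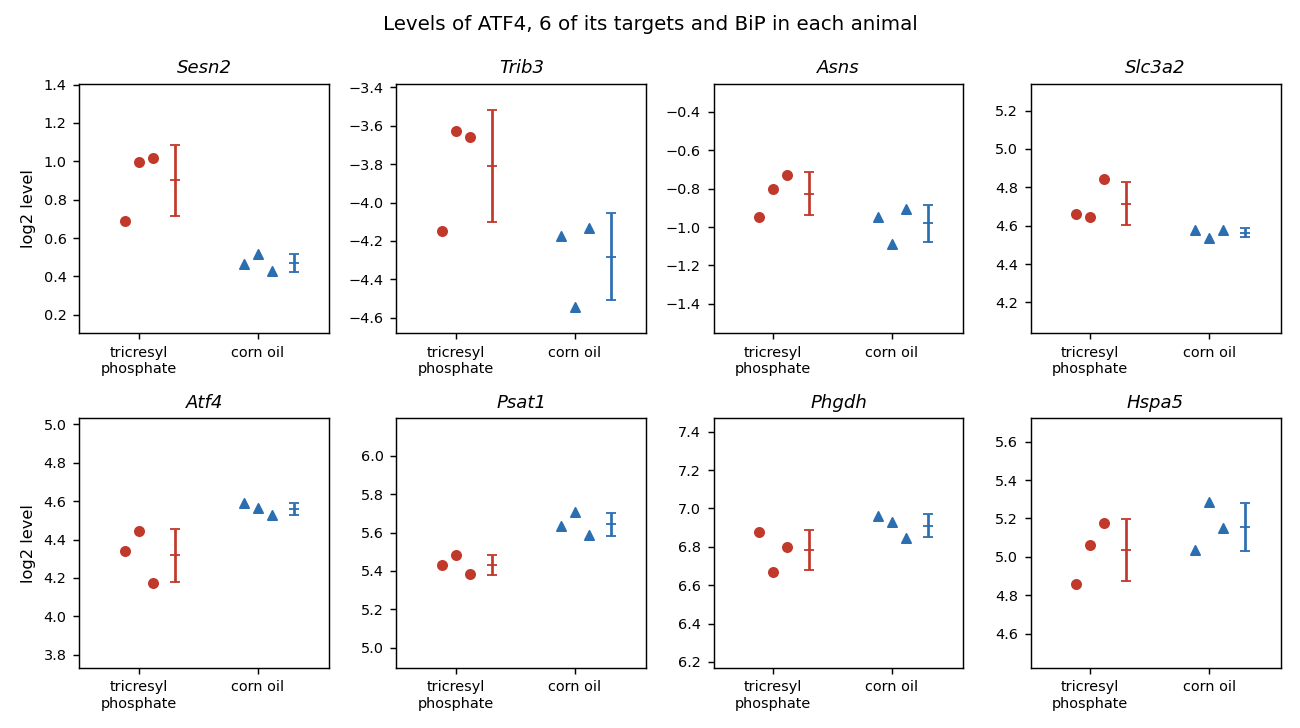
Log2 levels of Sesn2, Trib3, Asns, Slc3a2, Atf4, Psat1, Phgdh and Hspa5 in each animal, with tricresyl phosphate (circles) left of corn oil (triangles), and mean ± SD (n = 3) beside each group. Each panel spans the same width of levels around its own centre. Sesn2 and Slc3a2 lie higher and Atf4 and Psat1 lower in every tricresyl phosphate animal, while Trib3, Asns, Phgdh and Hspa5 overlap.

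Of the 4 transcription factors among the members 1, Atf4, had groups that did not overlap, as did 11.8% of all genes. Atf4 itself was at 4.34, 4.44 and 4.17 with tricresyl phosphate, against 4.59, 4.56 and 4.53 with corn oil. Every tricresyl phosphate animal lay below the corn oil animals, replicate 3 by the most, and the corn oil animals spread little. The difference was -0.24 ± 0.10 (SE), 0.846-fold, with an unadjusted limma p of 0.0495 and an adjusted limma p of 0.811, and it was -0.156 under quantile normalization. ATF4 activity is set largely by translation of its mRNA, which these arrays do not measure.

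Ddit3, the CHOP gene of stress-induced cell death, was at 2.71, 2.70 and 2.58 with tricresyl phosphate, against 2.76, 3.00 and 2.66 with corn oil. The groups overlapped, corn oil replicate 2 was the highest animal, and the difference was -0.14 ± 0.12 (SE), with a second probe at -0.06 ± 0.14 (SE). Atf5, a factor of the mitochondrial stress response that is translated under the same control as ATF4, ranged from -0.28 to -0.23 over all 6 animals and differed by -0.01 ± 0.08 (SE). Xbp1 was at 2.05, 2.31 and 2.28 with tricresyl phosphate, against 2.05, 2.29 and 2.18 with corn oil, and differed by 0.04 ± 0.11 (SE). Splicing of Xbp1 mRNA by IRE1 was not analysed here.

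Among the sensors no group separated on the probes used for the genes. Ern1 was dim, well above background on all 3 tricresyl phosphate arrays and 2 of 3 corn oil arrays, and differed by 0.19 ± 0.32 (SE), with a 95% interval of -0.59 to 0.98. Its sign turned when corn oil replicate 1, the dimmest array for it, was left out (-0.098). Eif2ak3, the PERK gene, differed by -0.05 ± 0.09 (SE) on its brighter probe and by 0.41 ± 0.15 (SE) on its dimmer probe, so its direction depends on the probe. On the dimmer probe the levels were -3.59, -3.19 and -3.29 with tricresyl phosphate, against -3.77, -3.97 and -3.57 with corn oil, which overlap narrowly. The dimmer probe had an unadjusted limma p of 0.0346 and an adjusted limma p of 0.816 among all kept probes. Atf6 differed by -0.07 ± 0.14 (SE), and its other 2 probes by -0.10 and 0.10.

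The chaperones and folding enzymes gave small differences of either sign. Of 12 measured, 4 lay above 0 and 8 below (66.7%, beside 59.2% of all genes). Their median was -0.03 beside -0.04 over all genes. On the brightest probe of each gene 0 stood at an unadjusted limma p under 0.05. Hspa5, the BiP gene and main ER HSP70, was at 4.86, 5.06 and 5.18 with tricresyl phosphate, against 5.04, 5.28 and 5.15 with corn oil. The groups overlapped, with tricresyl phosphate replicate 1 the lowest animal. The difference was -0.12 ± 0.12 (SE), with a 95% interval of -0.42 to 0.17. It was -0.036 without tricresyl phosphate replicate 1, -0.195 without tricresyl phosphate replicate 3, -0.059 without corn oil replicate 2, and -0.026 under quantile normalization.

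Hsp90b1, the ER HSP90 called GRP94, differed by 0.04 ± 0.13 (SE) on its brighter probe, with overlapping groups. A second Hsp90b1 probe was at 1.26, 1.20 and 1.31 with tricresyl phosphate, against 1.44, 1.56 and 1.48 with corn oil. There every tricresyl phosphate animal lay below every corn oil animal, a difference of -0.24 ± 0.08 (SE), so the probes of this gene disagree. That probe had an unadjusted limma p of 0.0299 and an adjusted limma p of 0.816 among all kept probes. The calnexin cycle genes, which hold glycoproteins until they fold, differed by -0.04 ± 0.10 (SE) for Calr, the soluble lectin, and by -0.06 ± 0.10 (SE) for Canx, the membrane lectin. Calr turned sign under quantile normalization (0.016) and Canx had a second probe at 0.06.

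The disulfide isomerases Pdia3 and Pdia6 differed by -0.02 ± 0.10 (SE) and -0.01 ± 0.08 (SE), with signs that turned under quantile normalization, with or without normexp before it. Their 95% intervals, -0.25 to 0.22 and -0.21 to 0.19, both include 0. Pdia4, another isomerase, was at -0.85, -0.46 and -0.25 with tricresyl phosphate, against -0.64, -0.98 and -0.48 with corn oil. It varied between animals of 1 group more than between groups, and differed by 0.18 ± 0.20 (SE). Creld2, a small secretory factor induced by ER stress, was at 0.32, 0.65 and 1.03 with tricresyl phosphate, against 0.27, 0.57 and 0.73 with corn oil, a difference of 0.15 ± 0.21 (SE). Each group spanned a wide range, with tricresyl phosphate replicate 3 highest, and without that animal the difference was -0.036.

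The BiP cofactors showed overlapping groups as well. Dnajb9, a J protein that also restrains IRE1, showed a difference of 0.03 ± 0.12 (SE) and 0.06 on another probe, and its sign turned when single animals were left out. Dnajc3, the J protein p58IPK, differed by -0.09 ± 0.09 (SE). Hyou1, a large HSP70 relative that exchanges the nucleotide of BiP, differed by -0.07 ± 0.08 (SE), and its sign turned under normexp with quantile normalization (0.015). A dimmer Hyou1 probe, spread widely between animals, differed by -0.19 ± 0.44 (SE), with a 95% interval of -1.25 to 0.88, and the mean of both probes by -0.126. Sdf2l1, a partner of the ER J proteins, was at 1.77, 1.58 and 1.91 with tricresyl phosphate, against 1.82, 1.98 and 2.01 with corn oil. Only tricresyl phosphate replicate 3 reached into the corn oil range, and the difference was -0.18 ± 0.12 (SE), with its other probes at -0.11 and -0.005. Over the brightest probe of each of the 12 genes the 95% intervals ran from -0.47 to 0.67, so a rise or fall beyond 1.59-fold lay outside every one of these. The dimmer Hyou1 probe has a wider interval than that.

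Both measured degradation genes gave differences near 0. Herpud1, an ER membrane protein that organises the retrotranslocation complex, was at 3.70, 4.39 and 3.72 with tricresyl phosphate, against 3.74, 3.95 and 4.04 with corn oil. Tricresyl phosphate replicate 2 stood above all other animals, also on the second probe, where it was at 2.93 and the other 5 animals lay between 2.12 and 2.60. The difference of the groups was 0.03 ± 0.21 (SE), and without that animal it was -0.202. Sel1l, the adaptor of the ubiquitin ligase HRD1, was at -0.56, -0.64 and -0.62 with tricresyl phosphate, against -0.68, -0.52 and -0.33 with corn oil. It differed by -0.10 ± 0.11 (SE), with a second probe at 0.05 and overlapping groups.

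**Figure D4:**
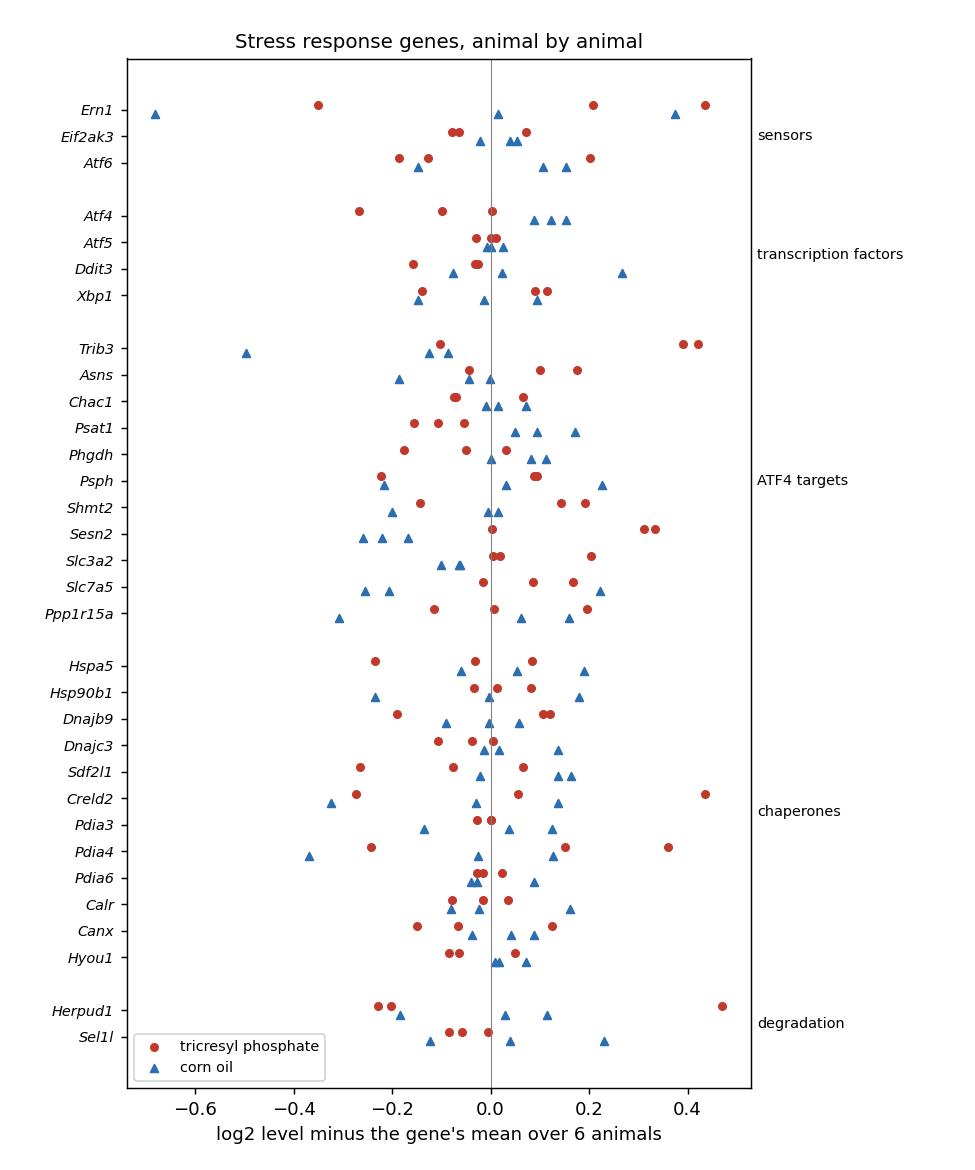
Log2 level of each measured member in each of the 6 animals, minus the gene's own mean over the 6, grouped by role, with tricresyl phosphate (red circles) drawn just above corn oil (blue triangles). Sesn2 and Slc3a2 have all red circles right of the blue triangles, and Atf4 and Psat1 all left of them.

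The 6 members whose ERSE is shown differed by -0.12 (Hspa5) to 0.15 (Creld2), and the 3 with a CARE by 0.47 (Trib3), 0.03 (Herpud1) and -0.05 (Chac1). Averaged over a class, each gene centred on its mean over the 6 animals, the chaperones stood at -0.101, -0.006 and 0.081 with tricresyl phosphate, against -0.059, -0.008 and 0.093 with corn oil. Each group thus held a low, a middle and a high animal, and the groups overlapped almost fully. ATF4 targets stood at 0.029, 0.041 and 0.085 with tricresyl phosphate, against -0.049, -0.089 and -0.017 with corn oil, with no overlap. Trib3 (0.47) and Sesn2 (0.43) had the largest of these 11 differences and add the most to the difference of the group means. Of the 11, 4 lay below 0. No test was applied to these class means, since the members were chosen with results known. The sensors and transcription factors and the degradation genes overlapped between the groups. The within-group SD of a member had a median of 0.133, beside 0.168 over all genes tested.

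**Figure D5:**
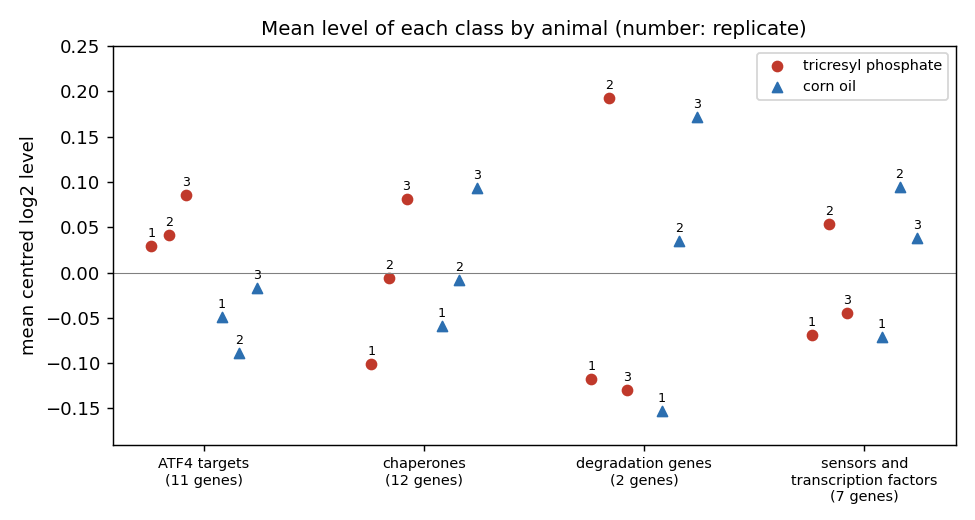
Mean centred log2 level of 4 classes of members in each animal, tricresyl phosphate (circles) left of corn oil (triangles), with the replicate number above each point. ATF4 targets separate the groups by a gap of under 0.05, from -0.017 to 0.029, and the other 3 classes overlap. Sesn2 and Trib3 add the most to the difference between the group means of the ATF4 targets.

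Further genes of the pathway were read from lists by role that exclude the 34 members, 124 genes of which 106 were measured. Of these 45 lay above 0 and 61 below, or 57.5% below beside 59.2% of all genes, and 0 passed an adjusted limma p under 0.05. Groups did not overlap in 13 of the 106, or 12.3%, beside 11.8% of all genes. At an unadjusted limma p under 0.05 stood 2 of the 106, both lower, or 1.89% beside 5.49% of all genes. Both belong to the folding and secretory list. In that list 10 of 34 lay above 0 and 24 below (70.6%), with a median of -0.06. Fkbp2, a prolyl isomerase of the ER, was at 4.98, 4.79 and 4.82 with tricresyl phosphate, against 5.31, 5.18 and 5.10 with corn oil. Erp29, a thioredoxin-like escort protein, was at 3.54, 3.44 and 3.44 with tricresyl phosphate, against 3.72, 3.62 and 3.75 with corn oil. Neither pair of groups overlapped, and the differences were -0.33 ± 0.10 (SE) for Fkbp2 and -0.23 ± 0.08 (SE) for Erp29, with an adjusted limma p of 0.811 each. Groups did not overlap in 8 of the 34 genes of this list (23.5%), 1 higher and 7 lower. Of all genes 11.8% did not overlap, 3.84% higher and 7.94% lower. On the other side of 0 in this list, Uggt1, the glucosyltransferase that checks glycoprotein folding, differed by 0.30 ± 0.15 (SE), and Txndc11 by 0.16 ± 0.09 (SE). The Uggt1 probe was dim, with means of -4.11 with tricresyl phosphate and -4.41 with corn oil.

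The further ATF4 targets lay on both sides of 0. Of 14 measured among 22 listed, 8 lay above 0 and 6 below, with a median of 0.02 and 0 at an unadjusted limma p under 0.05. Mthfd2, the mitochondrial folate dehydrogenase that follows Shmt2, was at -2.00, -2.36 and -2.68 with tricresyl phosphate, against -2.05, -1.79 and -1.88 with corn oil, a difference of -0.44 ± 0.19 (SE). Only tricresyl phosphate replicate 1 reached into the corn oil range. Slc1a5, a glutamine transporter, differed by 0.14 ± 0.13 (SE), and Slc38a2, a neutral amino acid transporter, by -0.14 ± 0.10 (SE). Eif4ebp1, a repressor of the cap-binding factor, differed by 0.10 ± 0.11 (SE). Aminoacyl-tRNA synthetases charge tRNA with amino acids. They lay above 0 in 4 and below in 8 of 12 (66.7%, beside 59.2% of all genes), with a median of -0.02. Their differences stayed between -0.16 and 0.06. Those with the smallest p were Wars1 at -0.10 ± 0.08 (SE) and Tars1 at -0.12 ± 0.09 (SE), and, above 0, Cars1 and Iars1 at 0.06 each.

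The kinases, subunits and exchange factors of eIF2 lay above 0 in 7 and below in 7 of 14, with a median of -0.03. Eif2s2, the beta subunit, was at 4.51, 4.40 and 4.34 with tricresyl phosphate, against 4.82, 4.56 and 4.53 with corn oil, and the groups did not overlap. Eif2s3, the gamma subunit, differed by 0.23 ± 0.10 (SE) and Eif2b2, a subunit of the exchange factor, by 0.35 ± 0.21 (SE), while Eif2ak2, the kinase that answers viral RNA, differed by -0.14 ± 0.09 (SE). Of 11 measured transcription factors and activating proteases 5 lay above 0 and 6 below. Jdp2, a repressor of the AP-1 family, differed by 0.19 ± 0.09 (SE) and Atf6b, the sister of ATF6, by 0.15 ± 0.09 (SE), both with separate groups, while Creb3l1 and Nupr1 differed by -0.14 ± 0.12 (SE) and -0.15 ± 0.26 (SE). Of 21 further degradation genes 11 lay above 0 and 10 below, with a median of 0.01. Edem2, a mannosidase-like protein, differed by 0.14 ± 0.11 (SE) and Herpud2, a relative of Herpud1, by 0.12 ± 0.09 (SE). Ufd1, a cofactor of the segregase VCP, differed by -0.15 ± 0.08 (SE) with separate groups, and Derl3 by -0.29 ± 0.21 (SE). The adjusted limma p of these named genes was 0.811 or above. Groups did not overlap in 1 of the 14 genes around eIF2 (7.14%) and 2 of the 11 factors and proteases (18.2%). The same held for 1 of the 21 degradation genes (4.76%), beside 11.8% of all genes.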

How the data were processed

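Per the file headers, the authors scanned and quantified single-colour arrays with Agilent Feature Extraction 10.7.1.1 (10.7 per the submitters' processing notes). The deposited intensity used here is the processed signal, with background subtracted within each array, and the flags of the same software. Its log2 was reduced by the array's 75th percentile over 61537 non-control probes. The authors' value table, a deposited linear intensity, is the processed signal scaled by a constant for each array, and its column medians lay between 0.1094 and 0.1152. Flagged outlier spots, 77 in all, were set missing, and no spot was saturated. Accessions were matched to RefSeq symbols of GRCr8, with 28206 probes named and 33331 not. Probes not named were grouped by their array name and counted as genes, so shares and medians over all genes include them. The arrays' own annotation is on rn4, so no coordinates of theirs are given. Probes well above background on at least 3 of 6 arrays were kept, and each gene took its brightest kept probe.

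The comparison used limma 3.58.1 in R 4.3.3 (lmFit, then eBayes), with two-sided p-values and Benjamini-Hochberg adjustment over all genes. The 95% intervals come from the same fit. The estimates and p-values of the fit were tested on simulated data. That check did not cover the intervals, nor changes as small as those of the members. All members are named, and of each further list at most 2 genes per direction with the smallest p. The members, lists and motifs were chosen with earlier results of these data known. The 3 animals per group limit the precision of every value. The planned mean spot signal for normexp (offset 50) was replaced by the median spot signal, and the planned protein tails were not analysed here. The motif match of 1 member's promoter is counted but not reported here.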

Additional observations from a re-analysis of the deposited data

How the results depend on the processing

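No member passed the adjusted threshold in any of the 17 other settings, and 16 of the 32 members kept their sign in all of them. Some settings repeat another fit, so their number overstates the checks. The slide as a block repeats leaving out corn oil replicate 1, and the authors' value table is the same signal rescaled. The number of genes past the threshold over the whole table, 0 as reported, was 2 under normexp (here always followed by quantile normalization) and 2 with an intensity trend and robust variance, and 0 to 1 when an animal was left out. The 4 members at an unadjusted limma p under 0.05 became 1 under quantile normalization, 2 under normexp, 1 with no filter on dim probes, 1 with the slide as a block, 1 to 2 when an animal was left out, and 0 after dropping tricresyl phosphate replicate 3 with corn oil replicate 2, an alternative chosen after seeing the data that leaves 2 animals per group. The replicate number as a block gave 1 member and 0 genes past the threshold. Deviations of same-numbered animals correlated at 0.086, -0.051 and -0.044, and those of differently numbered animals at -0.078 to 0.12. With 3 animals per group these values cannot show whether the numbers pair the animals. The median of the ATF4 targets, 0.128, was 0.080 under normexp, 0.093 with probes well above background on all arrays (10 targets), 0.072 with the slide as a block, 0.051 without the animals named above, and 0.069 to 0.158 when an animal was left out. The median of all genes, -0.038, was -0.016 under quantile normalization and -0.012 with normexp before it.

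Differences that changed sign were, under quantile normalization, Psph (0.010), Pdia3 (0.019), Pdia6 (0.069) and Calr (0.016), and under normexp Psph (0.018), Pdia3 (0.038), Pdia6 (0.050) and Hyou1 (0.015). With the mean over probes they were Eif2ak3 (0.183), Chac1 (0.667) and Hsp90b1 (-0.098). With the slide as a block, which drops corn oil replicate 1 from the comparison, they were Ern1 (-0.098), Xbp1 (-0.019), Dnajb9 (-0.015) and Herpud1 (-0.059). After dropping tricresyl phosphate replicate 3 with corn oil replicate 2 they were Atf6 (0.028), Psph (0.026), Ppp1r15a (-0.009), Hsp90b1 (-0.040), Dnajb9 (-0.017), Creld2 (-0.014), Pdia3 (0.050) and Pdia4 (-0.097). Leaving out each animal in turn gave ranges across 0 for Ern1 (-0.098 to 0.430), Xbp1 (-0.019 to 0.124), Psph (-0.141 to 0.079), Ppp1r15a (-0.082 to 0.152), Hsp90b1 (-0.067 to 0.140), Dnajb9 (-0.029 to 0.126), Creld2 (-0.036 to 0.319), Pdia3 (-0.090 to 0.040), Pdia6 (-0.037 to 0.027), Calr (-0.088 to 0.032) and Herpud1 (-0.202 to 0.147). The cause of these changes was not tested. Ern1 and Slc7a5, near background, have no value where all 6 arrays had to be well above it.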
